A study of Homo sapiens with 24 samples.

Results

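The comparison set MUTYH-/ cells against WT cells of the human line HAP1 at the scale of 100 kb and above. It compared 6 of the 12 columns of a table of OG-seq values, the 3 of MUTYH-/ and the 3 of WT. These were compared over 28114 windows of 100 kb on chromosomes 1 to 22 and X, out of 28284 windows with any usable bin. The other columns came from OGG1-/ cells and from DKO cells, which lack both OGG1 and MUTYH. They entered the limma fits, so the spread behind limma errors, intervals and p-values is that of all 12 columns. A window was kept when at least 50 of its 1 kb bins were not 0 in all 12 columns. The question was whether loss of MUTYH moves 8-oxoguanine (OG) from some chromosomes, arms or windows to others.

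HAP1 is a near-haploid line, so most loci have a single copy. WT cells carry both glycosylases, and MUTYH-/ cells had MUTYH disrupted with CRISPR-Cas9 and kept OGG1. No agent was given to either group. By the labels, 2 of the 3 MUTYH-/ samples came from clone C7 and 1 from clone C8, and 2 of the 3 WT samples came from clone C11 and 1 from clone C2. The titles also mark 1 sample of each group as R1 and 2 as R2. No label ties a column to a clone or to these marks, so no match was made, and p-values measure the spread between columns only. As described below, MUTYH columns 1 and 2 shared regions of unequal input that MUTYH column 3 lacked. The stretch on 4q from 181299001 had the same edges in both. Samples of the same clone are not independent, so the 3 columns may not be 3 separate measures of the genotype. Columns are called WT columns 1 to 3 and MUTYH columns 1 to 3.

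OG is the common oxidation product of guanine. Left in place, it can pair with adenine when DNA is copied. OGG1 removes OG that sits opposite cytosine, whereas MUTYH removes the adenine placed opposite OG and leaves the OG itself in the strand. Both act within base excision repair, and inherited loss of MUTYH causes a polyposis syndrome with G-to-T changes in tumors. Runs of guanine are easily oxidized and are among the sites where OG is known to form. They can also fold into G-quadruplexes.

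A deposited value is the number of OG reads in a bin after subtraction of scaled input reads. Each column was divided by its mean over all bins, and the mean over a window is called the relative OG level (genome mean 1). It is a share of the signal of a column, so a change in the total amount of OG cannot be seen. The OG reads and input reads behind the values could be recovered as whole numbers. They came to 59605238 to 86156722 OG reads per WT column and 75488317 to 109745695 per MUTYH column, with 78621690 to 99283014 input reads per column. The median counting error of a 100 kb level was 0.072 to 0.083, in units of the genome mean. The relative number of input reads of a window (genome mean 1) is given beside the level of the named windows and regions, as it follows the DNA copies and the base composition of a library. Over the 100 kb windows, the differences between genotypes in level and in input correlated with r = -0.164, as a description.

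The 4 G-run matches printed here stand for the motif counted below, because G runs are candidate sites of OG and these lie in the 100 kb windows with the smallest p in each direction. The motif is 4 runs of at least 3 G with gaps of 1 to 7 bases, searched on both strands of GRCh38, and it was found in 99.7% of the windows. Capitals mark the G runs, and each sequence is written 5′ to 3′ on the strand named.
Chromosome 19, 501946 to 501963, plus strand: GGGGGcaGGGaGGGtGGG
Chromosome 3, 105909296 to 105909317, minus strand: GGGtttGGGGaGGGaggtGGGG
Chromosome 1, 228608447 to 228608468, minus strand: GGGtGGGtGGGGcaagaGGGGG
Chromosome 4, 181318575 to 181318598, plus strand: GGGGttGGGaactGGGGtaGGGGG

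At the scale of whole chromosomes, the landscape of MUTYH-/ lay on that of WT. All 23 chromosomes differed between the group means by less than 0.05, and the means of the chromosomes correlated with r = 0.9992 as a description. The levels ran from 0.856 on chromosome 4, which is poor in GC and genes, to 1.49 on chromosome 15 in the mean of WT. None of 23 chromosomes was called in limma at an adjusted p under 0.05 (0.0% higher, 0.0% lower), with 0 at an unadjusted p under 0.05. The smallest adjusted p was 0.997.

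The largest gain was on chromosome 19, the chromosome with the highest gene density. It had levels of 1.42, 1.36 and 1.35 in WT and of 1.61, 1.34 and 1.25 in the MUTYH columns, so MUTYH column 1 lay above and MUTYH columns 2 and 3 lay below all WT columns. The difference was 0.0217 with a 95% interval from -0.1998 to 0.243. Chromosomes 17 and 22 showed the same order of columns. On chromosome 22 the levels were 1.43, 1.37 and 1.36 in WT and 1.59, 1.33 and 1.29 in the MUTYH columns, a difference of 0.0182 (interval from -0.172 to 0.209). On chromosome 17 the difference was 0.0201.

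The largest loss was on chromosome 1, at -0.0169 (interval from -0.0489 to 0.0152). Here WT column 3 stood apart, with a level of 1.13 against 1.07 in both other WT columns and 1.07 to 1.09 in the MUTYH columns. Chromosomes X and 6 followed, at -0.0110 and -0.0077. Neither is larger than the spread between columns, since MUTYH column 1 had the lowest value on both and MUTYH column 3 the highest.

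**Figure D1:**
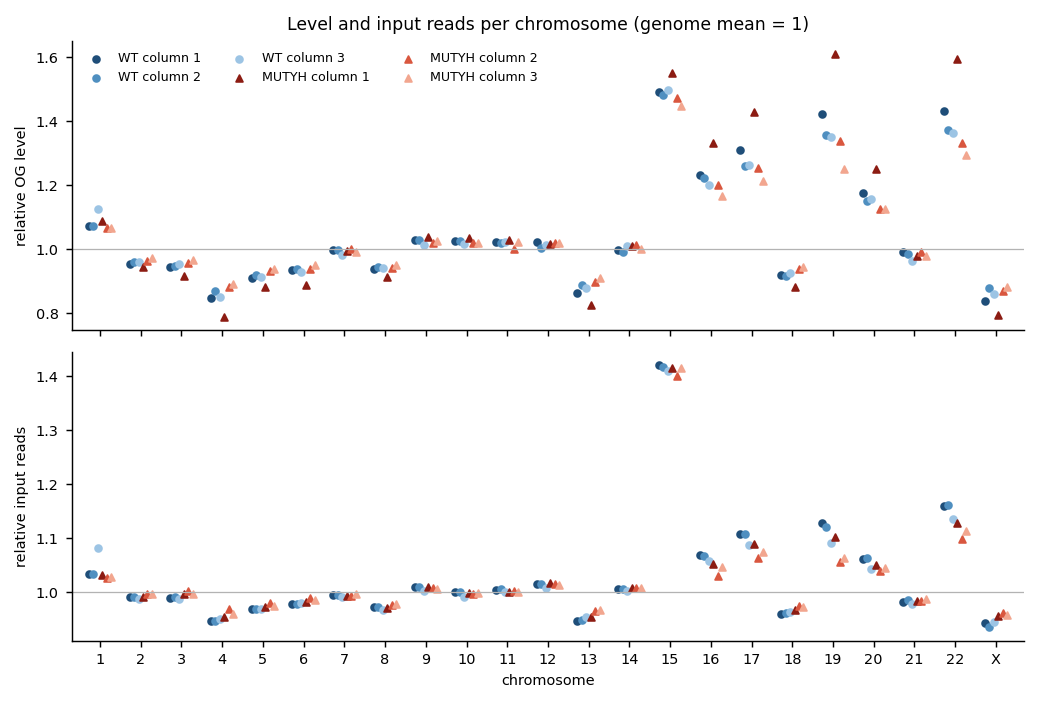
Relative OG level (top) and relative input reads (bottom) of each chromosome, with the genome mean at 1. Circles are the 3 WT columns and triangles the 3 MUTYH columns. Chromosome 15 is highest in the mean of either group, MUTYH column 1 stands above the other columns on chromosomes 16, 17, 19, 20 and 22, and WT column 3 stands above the other columns on chromosome 1.

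Of 42 chromosome arms, 0 were called in limma (0.0% higher, 0.0% lower) and 0 had an unadjusted p under 0.05. All 42 differences were under 0.05. The largest were -0.0455 on 1q (interval from -0.101 to 0.0099) and 0.0452 on 19p (interval from -0.229 to 0.320). They were followed by Xq at -0.0174 and 6q at -0.0117, and by 17q at 0.0257 and 16p at 0.0236. No arm had its 3 MUTYH columns all on one side of its 3 WT columns. The exact permutation test (two-sided, 3 columns against 3) gave no arm and no chromosome a p below 0.2, where 0.1 is the smallest p it allows.

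On 1q a single WT column stood apart. The level was 1.02, 1.04 and 1.15 in WT and 1.01, 1.03 and 1.03 in the MUTYH columns. WT column 3 was thus the only column off the rest, and its relative input reads of 1.13 were raised as well, against 1.01 in each of the other 5 columns. In steps of 5 Mb from 140 Mb to the end of 1q, the input reads of WT column 3 were 1.10 to 1.17 times the mean of WT columns 1 and 2 at every step. The loss on 1q thus came with a WT column that stood apart, and the MUTYH columns lay at the level of WT columns 1 and 2.

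Chromosome 15, the highest of all, holds a stretch that is known to be present in an extra copy in HAP1. The columns placed it at 60811001 to 89350000 (28.5 Mb, GRCh38). Its relative input reads were 2.11, 2.11 and 2.09 in WT and 2.09, 2.06 and 2.09 in the MUTYH columns, against 0.9987 to 1.01 on the rest of the chromosome. The level on the segment was 2.33, 2.28 and 2.35 in WT and 2.48, 2.27 and 2.22 in the MUTYH columns, and outside it 1.01 to 1.03. Both genotypes thus hold the segment, and the groups overlap.

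At 100 kb, the levels of the columns were also much alike. Between WT columns they correlated with r of 0.796 to 0.837 over the windows, between MUTYH columns with 0.745 to 0.816, and across genotypes with 0.766 to 0.876. These are descriptions, as the windows share libraries and base composition and all columns share the extra segment of chromosome 15. A MUTYH column thus resembled a WT column as closely as another MUTYH column. After correction for GC content the ranges were 0.501 to 0.563, 0.496 to 0.601 and 0.499 to 0.620 in the same order.

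Of 28114 windows, 0 were called higher and 0 lower in MUTYH-/ in limma (0.0% and 0.0%), and the smallest adjusted p was 0.323. At an unadjusted p under 0.05 there were 937 windows (3.33%). The 3 MUTYH columns were all higher than the 3 WT columns in 1081 windows (3.85%) and all lower in 1207 (4.29%). The SD of the differences was 0.126, against 0.0653 from counting of reads alone, and 58.5% of the windows differed by less than 0.1. The 95% interval of a window, not adjusted for the number of windows, reached a median of 0.248 to either side. A smaller difference of a typical single window could thus not be told from none, and a call after adjustment needs a larger one. Over windows of 1 Mb, 0 of 2816 were called (0.0% higher, 0.0% lower), 37 had an unadjusted p under 0.05, and the smallest adjusted p was 0.9995. The interval then reached a median of 0.121 to either side, and 97.0% of windows differed by less than 0.1.

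**Figure D2:**
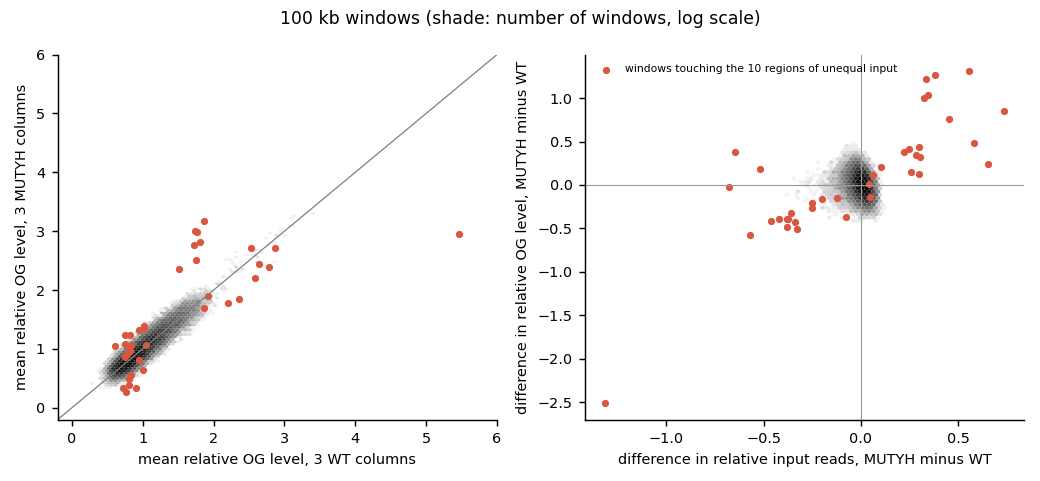
Mean relative OG level of 3 WT columns against 3 MUTYH columns (left), and difference in level against difference in relative input reads (right), over 28114 windows of 100 kb. Red points are the 38 windows that touch the 10 regions of unequal input described in the text, among them the loss of -2.51 on 1q and the gain of 1.26 on 19p.

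No window was called, so windows are named by the smallest unadjusted p in each direction. The strongest gain lay near the end of 19p, at 500001 to 600000, a window with BSG, which encodes the surface glycoprotein basigin, TPGS1 and the ubiquitin-conjugating enzyme gene CDC34. Its level was 1.86, 2.12 and 1.23 in WT and 4.03, 3.21 and 1.75 in the MUTYH columns. MUTYH columns 1 and 2 stood above all WT columns, and MUTYH column 3 did not. The difference was 1.26 (SE 0.274, limma adjusted p = 0.323). The input reads were 1.24, 1.31 and 1.24 in WT and 2.02, 1.93 and 0.993 in the MUTYH columns, so the input was high in the same columns as the level. With GC correction the gain was called (adjusted p = 0.0029), and so it was without MUTYH column 3 (difference 1.88, adjusted p = 1.1e-05). When the level was divided by the relative input, the difference was 0.439.

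The strongest loss lay on 1q at 228600001 to 228700000, in the cluster of the genes for 5S ribosomal RNA, of which the annotation lists 17 between 228610268 and 228646158. Its level was 5.43, 6.27 and 4.69 in WT and 3.13, 2.07 and 3.67 in the MUTYH columns, and the groups did not overlap. The difference was -2.51 (SE 0.572, adjusted p = 0.323). The input reads were lower in the same columns, with 2.53, 2.83 and 2.76 in WT and 1.49, 1.33 and 1.35 in the MUTYH columns. These genes are near-identical repeats, so reads from all copies collect on the copies that the reference holds. When the level was divided by the relative input, the difference turned to 0.102. With GC correction the loss was called (adjusted p = 0.0017), and so it was without MUTYH column 3 (difference -2.86, adjusted p = 0.0267).

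The next gains differed in how far the input moved. On 3q, at 105900001 to 106000000, the level was 0.745, 0.469 and 1.02 in WT and 1.47, 1.57 and 0.650 in the MUTYH columns, with input reads of 1.77 and 1.84 in MUTYH columns 1 and 2 and of 0.898 to 0.958 in the other columns. The difference of 0.488 (adjusted p = 0.9996) was 0.779 and called without MUTYH column 3 (adjusted p = 0.00025), and turned to -0.0099 when the level was divided by the input. On 4q, at 185400001 to 185500000, which holds CCDC110, the protease gene UFSP2 and C4orf47, the level was 0.744, 0.836 and 0.769 in WT and 1.21, 1.16 and 1.36 in the MUTYH columns. All MUTYH columns were above all WT columns, while the input reads were 0.959 to 1.00 in WT and 0.912 to 0.972 in the MUTYH columns. The difference was 0.458 (SE 0.125, adjusted p = 0.9996).

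A window on chromosome 21 at 29600001 to 29700000, in the genes of the glutamate receptor subunit GRIK1 and the transcription repressor BACH1, had levels of 0.786, 0.452 and 0.662 in WT and of 1.00, 1.14 and 1.02 in the MUTYH columns. BACH1 represses genes of the oxidative stress response. A window with no protein-coding gene on chromosome 18, at 43700001 to 43800000, had levels of 0.517, 0.343 and 0.266 in WT and of 0.673, 0.992 and 0.788 in the MUTYH columns. Both had no overlap between groups and an adjusted p of 0.9996, with input reads of 0.888 to 0.955 on chromosome 21 and of 0.774 to 0.870 on chromosome 18.

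Among the losses, the window on 4q at 181300001 to 181400000 has no protein-coding gene. Its level was 1.02, 0.764 and 0.945 in WT, 0.0750 and 0.0872 in MUTYH columns 1 and 2, and 0.844 in MUTYH column 3. The input reads were 0.112 and 0.115 in MUTYH columns 1 and 2 and 0.904 to 1.01 in all others. The difference of -0.575 (adjusted p = 0.323) was -0.830 without MUTYH column 3 (adjusted p = 0.00011) and -0.180 when the level was divided by the input. The level of the last 3 losses did not overlap between groups, and their input moved little but the other way. At 145400001 to 145500000 on chromosome 4, around the start of SMAD1, a mediator of BMP signaling, the level was 0.920, 0.929 and 1.00 in WT and 0.529, 0.465 and 0.657 in the MUTYH columns. At 110200001 to 110300000 on chromosome 11, in RDX, which encodes the membrane linker radixin, it was 1.17, 1.04 and 1.46 against 0.773, 0.814 and 0.793. At 50600001 to 50700000 on chromosome X, in SHROOM4, it was 0.992, 1.13 and 1.08 against 0.613, 0.728 and 0.671. These differences of -0.400, -0.428 and -0.397 had an adjusted p of 0.9996 each. The input reads of these windows were higher in all MUTYH columns than in all WT columns, at 0.957 to 1.01 against 0.902 to 0.920 in SMAD1, at 1.03 to 1.10 against 0.871 to 1.02 in RDX and at 0.991 to 0.998 against 0.911 to 0.923 in SHROOM4. As input is subtracted, a higher input lowers the level at the same number of OG reads, and its part in these losses was not tested.

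**Figure D3:**
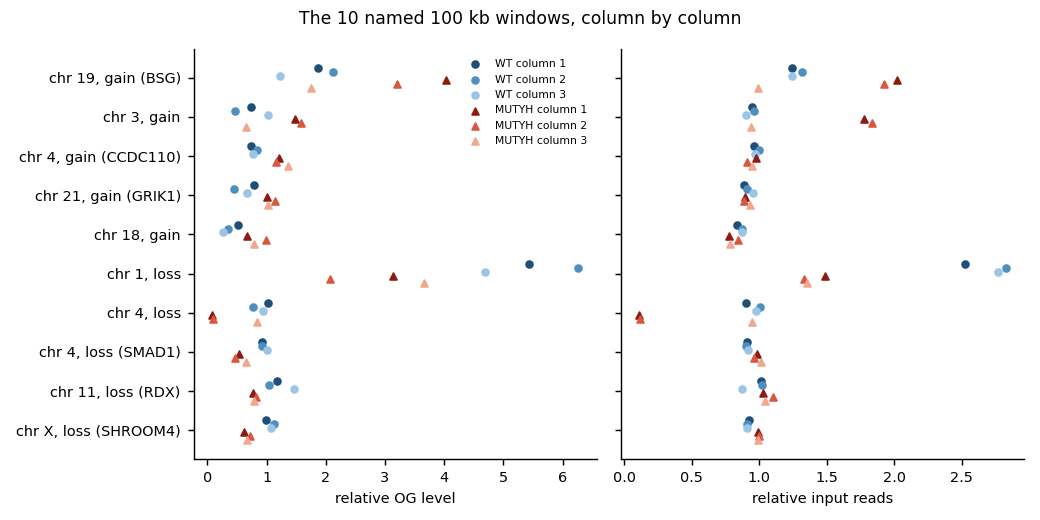
Relative OG level (left) and relative input reads (right) of the 10 named windows of 100 kb, with circles for the 3 WT columns and triangles for the 3 MUTYH columns. In the windows on chromosomes 19, 3 and 1 and the first loss on chromosome 4 the input moves with the level. In the other 6 windows the input moves less and lies between 0.774 and 1.10 in every column.

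At 1 Mb, the largest gain by the same rule was the first megabase of chromosome 19 at 1.06 (SE 0.345), with levels of 1.82, 1.87 and 1.55 in WT and of 4.08, 2.796 and 1.57 in the MUTYH columns. MUTYH column 3 lay inside the WT range. The input reads were 1.29, 1.32 and 1.21 in WT and 2.14, 1.998 and 1.03 in the MUTYH columns. The other gains were 0.133 on 5q from 71000001 and 0.114 on chromosome 21 from 29000001. The losses were -0.171 on 16q from 78000001, where WWOX lies and MUTYH columns 1 and 2 had input reads of 0.595 and 0.593 against 0.772 to 0.818 in the other columns, -0.124 on chromosome 10 from 59000001 and -0.127 on chromosome 3 from 112000001. Each had an adjusted p of 0.9995. In the windows on 5q and on chromosomes 21, 10 and 3 the groups did not overlap in level. Their input reads lay between 0.917 and 1.09 in every column.

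Of the 17 windows that differed by more than 0.5, 12 were gains and 5 were losses. Those on chromosome 15, between 62300001 and 75700000, lay in its extra segment, where the levels of both groups are high. Another 10 lay in regions where the input reads of a MUTYH column departed from WT. These regions were found after the values had been seen, as windows with input reads under 0.6 or over 1.4 times the median of the WT columns (of the other 2 for a WT column), and they are described without a test. WT columns 1 and 2 had 0 such windows and WT column 3 had 4, whereas MUTYH columns 1, 2 and 3 had 19, 19 and 11. The windows of the MUTYH columns formed 10 regions, 6 with fewer and 4 with more input reads. Those of WT column 3 were not joined into regions. By this rule 4 were found in MUTYH columns 1 and 2 only, 2 in MUTYH column 3 only, 1 in MUTYH columns 2 and 3, and 3 in all MUTYH columns. The rest of the 17 windows lay outside the segment and regions. On chromosome 6, from 151200001, the level was 1.11, 0.980 and 1.07 in WT and 1.69, 1.55 and 1.46 in the MUTYH columns. On chromosome 7, from 27100001, it was 1.67, 1.4997 and 1.67 against 1.35, 0.886 and 1.05. Levels did not overlap in either. Input reads overlapped on chromosome 6 and were lower on chromosome 7 (1.02 to 1.04 against 1.15 to 1.23). On chromosome 20, from 29900001, the levels overlapped.

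The gene WWOX, an oxidoreductase gene of 1113 kb on 16q (78099400 to 79212667), spans the common fragile site FRA16D, where chromosomes tend to break under replication stress. All 3 MUTYH columns had a stretch of almost no reads in it, at 2 different places. In MUTYH columns 1 and 2 it ran from 78513001 to 78816000 and 78815000 (303 and 302 kb), within the intron before the last exon. Over the longer stretch, relative input reads were 0.0086 and 0.0073 in MUTYH columns 1 and 2, against 0.716, 0.7001 and 0.636 in WT and 0.810 in MUTYH column 3. The relative OG level was 0.0047 and 0.0054 in these 2 columns, against 0.763, 0.793 and 0.725 in WT and 0.899 in MUTYH column 3.

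In MUTYH column 3 the stretch was 78403001 to 78522000 (119 kb) and covered exons 7 and 8 of the 9 exons of WWOX. Its input reads were 0.0800, against 0.656 and 0.677 in MUTYH columns 1 and 2 and 0.744 to 0.786 in WT. The level was 0.106 in MUTYH column 3, against 0.871 and 0.556 in MUTYH columns 1 and 2 and 0.754 to 1.05 in WT. The stretches shared 9 kb. WT column 3 had a short gap in the same gene, 78724001 to 78750000 (26 kb), with input reads of 0.0235 against 0.702 and 0.697 in WT columns 1 and 2. Gaps in WWOX were thus seen in 4 of the 6 columns, in both genotypes. Samples of the same clone are not independent and no label ties a column to a clone, so this does not count separate gaps. The loss of -0.171 over 1 Mb of 16q includes these stretches.

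On 4q, MUTYH columns 1 and 2 lacked most reads over 181299001 to 181468000 (169 kb), a stretch without protein-coding genes. Input reads there were 0.130 and 0.135, against 0.919, 0.984 and 0.998 in WT and 0.948 in MUTYH column 3. The level was 0.131 and 0.139, against 0.882, 0.982 and 0.855 in WT and 0.812 in MUTYH column 3. The ratio of relative OG to input reads was 0.9989 and 1.00 there, against 0.958 to 0.995 in WT, so level and input were low in like measure.

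On 19p, MUTYH columns 1 and 2 had more reads from 272001 and 278001 on, over 719 and 588 kb with 30 and 25 protein-coding genes, among them CDC34, BSG and the channel gene HCN2. Over the stretch of MUTYH column 1, input reads were 2.12 and 1.98 in MUTYH columns 1 and 2, against 1.27, 1.30 and 1.20 in WT and 1.03 in MUTYH column 3. The level was 4.07 and 2.81, against 1.83, 1.88 and 1.55 in WT and 1.57 in MUTYH column 3. The ratio of relative OG to input reads was 1.14, 1.14 and 1.08 in WT and 1.22, 1.12 and 1.14 in the MUTYH columns. It was highest in MUTYH column 1, while MUTYH column 2 lay within the range of WT.

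On 3q, MUTYH columns 1 and 2 had more reads over 290 and 291 kb that end at 106144000 and hold the first exons of CBLB, a ubiquitin ligase gene of lymphocyte signaling. Input reads over the stretch of MUTYH column 1 were 1.78 and 1.81, against 0.899, 0.906 and 0.869 in WT and 0.908 in MUTYH column 3. The level was 1.27 and 1.56, against 0.733, 0.677 and 0.890 in WT and 0.749 in MUTYH column 3. Another 107 kb on 4q from 175883001, in GPM6A but without an exon of its canonical transcript, which encodes a neuronal membrane glycoprotein, had input reads of 1.44 and 1.54 in MUTYH columns 1 and 2, against 0.949 to 0.968 in WT and 0.942 in MUTYH column 3.

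MUTYH column 3 alone had more reads over 447 kb of 8q, 52263001 to 52710000, which hold exons 1 and 2 of ST18, all of ALKAL1 and exons 2 to 24 of RB1CC1, a gene needed to start autophagy. Its input reads were 1.83, against 0.939 to 0.996 in the other 5 columns, and its level was 1.97 against 0.783 to 0.965. In the extra segment of chromosome 15, MUTYH column 3 had fewer reads over 84374001 to 84913000 (539 kb), from ZSCAN2 to SLC28A1. Its input reads there were 1.27, against 2.14 to 2.32 in the other 5 columns, and its level was 1.32 against 2.499 to 2.91. That is nearer to the rest of chromosome 15 than to the segment.

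**Figure D4:**
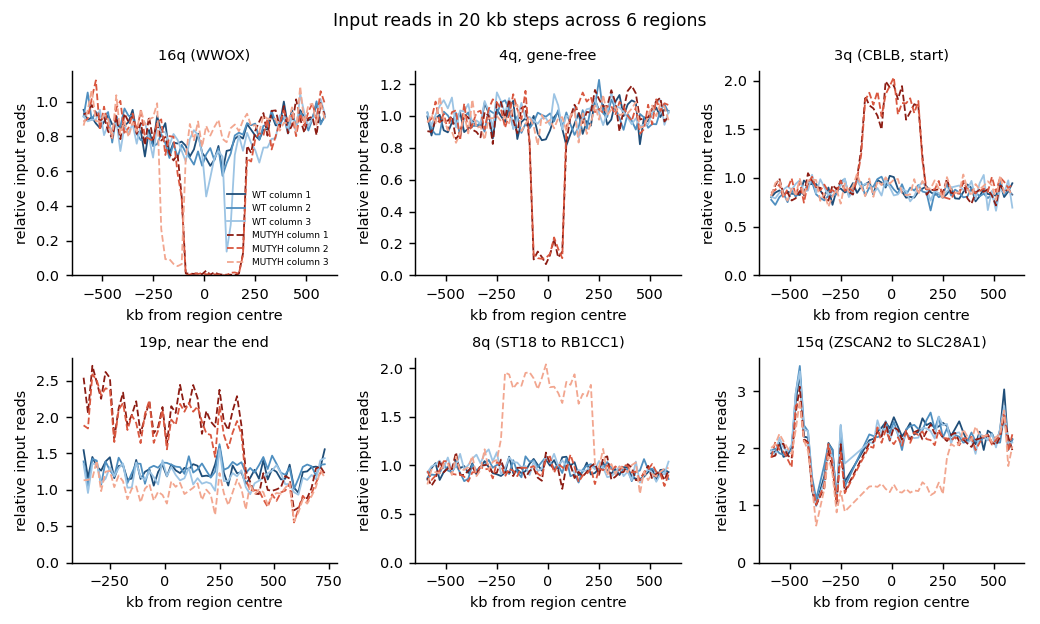
Relative input reads in steps of 20 kb against the distance from the centre of 6 regions (kb), with solid lines for the 3 WT columns and dashed lines for the 3 MUTYH columns. MUTYH columns 1 and 2 fall to near 0 in WWOX and on 4q and rise on 3q and 19p, and MUTYH column 3 falls at another place in WWOX, rises on 8q and falls on 15q.

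The level rose with GC content in every column, and the columns of MUTYH-/ bracketed those of WT. Windows were sorted into 5 classes of like size by GC. In the class richest in GC (5622 windows, median 48.1% GC) the level was 1.48, 1.43 and 1.4504 in WT and 1.67, 1.37 and 1.35 in the MUTYH columns. In the poorest class (5623 windows, median 35.501% GC) it was 0.678, 0.721 and 0.693 in WT and 0.572, 0.747 and 0.760 in the MUTYH columns. MUTYH column 1 was thus the most uneven column and MUTYH columns 2 and 3 the most even. The exact permutation test gave p = 1.0 for both classes, with 0.1 as the smallest p it allows.

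The slope of the level per 10 percentage points of GC was 0.579, 0.518 and 0.541 in WT and 0.798, 0.443 and 0.427 in the MUTYH columns (difference 0.0097, exact permutation p = 1.0). The SD of the slopes was 0.0308 in WT and 0.210 in MUTYH-/ (n = 3 each). The 6 columns of the other genotypes had slopes of 0.333 to 0.812, a range as wide as that of the MUTYH columns. The SD of the level over all windows was 0.365, 0.346 and 0.346 in WT and 0.474, 0.326 and 0.302 in the MUTYH columns (difference 0.0152, exact permutation p = 1.0). The mean of MUTYH-/ therefore hides columns that went opposite ways, and the sign of both differences turned when MUTYH column 1 was left out, to -0.111 for the slope and to -0.0381 for the SD.

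The input libraries showed a more even difference. Their slope on GC was 0.222, 0.228 and 0.197 in WT and 0.181, 0.135 and 0.155 in the MUTYH columns, lower in 3 of 3 columns (exact permutation p = 0.1, the smallest it allows). In the columns of the other genotypes this slope ran from 0.0972 to 0.207, so a flatter input was not particular to MUTYH-/. In the richest GC class the input reads were 1.18, 1.19 and 1.16 in WT and 1.15, 1.11 and 1.13 in the MUTYH columns (exact permutation p = 0.1, 0.131 adjusted over the classes). In the same limma fit on the input reads, 242 windows were lower (0.861%) and 14 higher (0.0498%) in MUTYH-/, and 238 of the 242 belonged to the richest GC class. Over those 242 windows the median difference in OG level was -0.003, with 117 higher and 125 lower. Over the 14 windows of higher input it was -0.152, with 3 higher and 11 lower. The level thus went both ways where the input was lower, and was mostly lower in the few windows where the input was higher. Over all windows the median difference was -0.0012. These windows were picked by their input, and a higher input that is subtracted lowers the level at the same number of OG reads. The counts are thus a description only. The ratio of relative OG to input reads in the richest class was 1.08, 1.07 and 1.07 in WT and 1.11, 1.07 and 1.06 in the MUTYH columns. What part the GC dependence of the libraries has in the level was not tested.

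**Figure D5:**
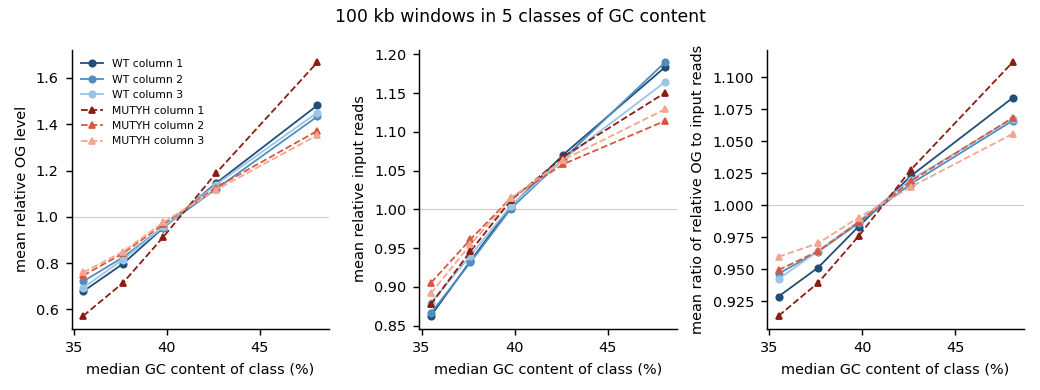
Mean relative OG level (left), relative input reads (middle) and ratio of relative OG to input reads (right) against the median GC content of 5 classes of 100 kb windows (%). Circles with solid lines are the 3 WT columns and triangles with dashed lines the 3 MUTYH columns. MUTYH column 1 is steepest in level and MUTYH columns 2 and 3 are flattest, while in input all 3 MUTYH columns are flatter than the WT columns.

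G-run motifs gave the same order of columns. In the class of windows with most motifs (median 29 per window) the level was 1.42, 1.39 and 1.405 in WT and 1.58, 1.32 and 1.31 in the MUTYH columns, and in the class with fewest (median 3) it was 0.789, 0.811 and 0.795 in WT and 0.717, 0.843 and 0.846 in the MUTYH columns. The group means differed by 0.00072 and 0.0039. Over all windows, the difference between genotypes correlated with the number of motifs with r = -0.018 and with GC content with r = 0.0387, as descriptions. These averages join columns that went opposite ways, since against the mean of WT the difference correlated with GC content with r = 0.563 in MUTYH column 1, -0.275 in MUTYH column 2 and -0.326 in MUTYH column 3.

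Gene-dense windows carried more OG signal than gene-free windows in every column. Windows with at least 3 starts of protein-coding genes (2086) exceeded windows with none (17517) by 0.522, 0.439 and 0.449 in WT and by 0.70003, 0.404 and 0.351 in the MUTYH columns (difference 0.0154, exact permutation p = 1.0). Windows within 5 Mb of a chromosome end (1986) exceeded the rest by 0.274, 0.280 and 0.250 in WT and by 0.400, 0.177 and 0.201 in the MUTYH columns (difference -0.0084, p = 1.0 in the exact permutation test). In the last 1 Mb of the chromosomes (359 windows) the level was 1.38, 1.39 and 1.31 in WT and 1.499, 1.25 and 1.28 in the MUTYH columns. In all these classes MUTYH column 1 was at one end and MUTYH columns 2 and 3 at the other, and WT lay between them.

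The gene MUTYH itself lies on the minus strand of chromosome 1 at 45329163 to 45340893. Its 12 bins held 393 to 457 input reads in the MUTYH columns and 434 to 550 in WT, and their relative input was 1.18, 1.17 and 1.17 in the MUTYH columns and 1.30, 1.15 and 1.26 in WT. No bin of the gene lacked reads, as the lowest in a MUTYH column was 0.465 times the mean of WT. Small edits cannot be seen in 1 kb bins, so this does not check the knockout. The 100 kb window around its start had levels of 1.04, 1.39 and 1.18 in WT and of 1.75, 1.36 and 1.16 in the MUTYH columns, which overlap (difference 0.222, SE 0.159, limma adjusted p = 0.9996).

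Windows with the start of genes of base excision repair, mismatch repair and redox defence were described as lists. Of 49 genes, 0 had a window called in limma (all windows: 0.0% higher, 0.0% lower) and 3 had an unadjusted p under 0.05, against 3.33% of all windows. The 3 MUTYH columns were all higher in 3 windows and all lower in 2, that is in 5 of 49, against 3.85% and 4.29% of all windows. The median level of the 49 windows was 1.35 in WT and 1.37 in MUTYH-/, against 0.947 and 0.943 over all windows.

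Among the 23 genes of base excision repair, the median difference was -0.002, and the all-window median was -0.0012. The window of OGG1, on 3p at 9700001 to 9800000, had levels of 1.78, 1.49 and 1.59 in WT and of 1.61, 1.43 and 1.76 in the MUTYH columns, a difference of -0.0206 (SE 0.185). The largest gain of the list was at PCNA, the sliding clamp of replication, at 1.04, 1.10 and 0.90005 in WT and 1.67, 1.25 and 1.05 in the MUTYH columns (difference 0.309, unadjusted p = 0.0341 and adjusted p = 0.9996 in limma). MUTYH column 3 overlapped with WT there. The largest loss was at UNG, the uracil glycosylase gene, with a difference of -0.212 (SE 0.144).

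Among the 8 genes of mismatch repair, the median difference was 0.0575. The largest loss was -0.195 at the exonuclease gene EXO1. Among the 18 genes of redox defence, the median difference was 0.0730, and differences ran from -0.155 at the peroxiredoxin gene PRDX6 to 0.247 at GPX4, which encodes a glutathione peroxidase for membrane lipids.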

How the data were processed

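OG-seq pulls down DNA fragments with biotin-labeled OG on streptavidin and sequences them beside input DNA. The authors trimmed adapters (cutadapt 2.8), mapped reads to GRCh38 (Bowtie2 2.3.5.1), marked duplicates, counted reads per 1 kb bin outside blacklisted regions and subtracted input reads scaled by signal extraction scaling. The deposited value is thus a score in OG reads, below 0 in 22.0 to 24.7% of the bins of the 6 columns. No count model was used, as scores are no counts.

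Each column was divided by its mean over 2835235 bins. Bins at 0 in all 12 columns (29881) were left out. Levels of windows, arms and chromosomes were fitted on all 12 columns with limma 3.58.1 (R 4.3.3, variance trend, Benjamini-Hochberg adjustment, called at an adjusted p under 0.05), with the contrast MUTYH-/ minus WT. Values per column were compared with exact permutation tests (scipy 1.17.1). Both steps were tested on simulated data. OG and input reads were recovered as whole numbers, with 1 bin unsolved in 1 column. Counting errors cover reads only.

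GC content and motifs came from the GRCh38 sequence and genes from GENCODE. Arms were split at standard centromere bands, and those with under 500 bins were not tested. Region edges maximize a Poisson likelihood of input reads within 300 kb of the windows. Named windows are the 5 of 100 kb and 3 of 1 Mb with the smallest unadjusted p in each direction, at least 2 Mb apart, because none was called. Named arms and chromosomes are the 3 largest differences each way. Repeat content was not analysed here. Of the gene lists, 1 gene is not reported here. The comparison, lists and regions were chosen with earlier results of these data known.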

Additional observations from a re-analysis of the deposited data

How the results depend on the processing

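No arm or chromosome was called under any alternative run. At 100 kb, where 0 windows were called, 5 gained and 1 lost were called with GC correction and with the replicate block and GC correction together, 2 lost with values below 0 set to 0, 1 lost on the log2 scale, 2 gained and 1 lost with no minimum of bins, in windows of 2 to 7 bins, and 1 gained for the ratio of recovered OG to input reads. The gains called with GC correction lay on 19p between 300001 and 1000000, and the loss was the window of the 5S cluster. The losses with values below 0 set to 0 were that window and the window on 4q from 181300001. The latter was also the loss on the log2 scale. The gain for the ratio lay on chromosome 16 from 33300001, around a short stretch of very high input described below. With the replicate block alone 0 were called. Leaving out 1 column gave 0 to 8 gained and 0 to 5 lost at 100 kb and 0 to 1 gained at 1 Mb. All of these calls came without MUTYH column 3, which leaves the 2 columns that share the regions of unequal input on 19p, 3q and 4q and the longer one in WWOX; 12 of these windows lie on 19p, 3q, 4q, 16q and the 5S cluster, and 1 lies elsewhere on chromosome 3.

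The difference in slope on GC (0.0097) turned to -0.0159 with values below 0 set to 0 and lay between -0.111 and 0.0741 with 1 column left out. The difference in SD (0.0152) turned to -0.00201 with values below 0 set to 0 and lay between -0.0381 and 0.0477. The difference between gene-dense and gene-free windows (0.0154) turned to -0.0097 with values below 0 set to 0 and lay between -0.0921 and 0.0825. The difference near chromosome ends (-0.0084) turned to 0.0072 for the ratio of OG to input reads and lay between -0.0788 and 0.0327. The lowest values of the first 3 came without MUTYH column 1, as did that near chromosome ends. The sign also turned without WT column 2 for the slope and the gene classes, and without MUTYH column 2 or 3 near chromosome ends. Among the named windows, the level divided by relative input, an alternative added after seeing the data, turned 3q from 0.488 to -0.0099 and 1q from -2.51 to 0.102, and brought 19p from 1.26 to 0.439 and the first loss on 4q from -0.575 to -0.180. The cause was not tested.

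Columns with the same number deviated together with r = 0.140, 0.0741 and 0.0718, and each column correlated best with its own number. As 2 of 3 were under the limit of 0.1 and no label ties a column to a clone or to the marks R1 and R2, the numbers were not taken as pairs, which does not show that they are none. With 3 columns per group, the exact test cannot pass p = 0.1.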

Other observations

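The stretch of WWOX that lacked reads in MUTYH columns 1 and 2 had few reads in 2 columns of OGG1-/ cells as well. Over 78513001 to 78816000, relative input reads were 0.251, 0.250 and 0.590 in the columns of OGG1-/ cells and 0.544, 0.564 and 0.669 in those of DKO cells, which lack both glycosylases, against 0.636 to 0.716 in WT.

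Over the 5S ribosomal RNA cluster, at 228556001 to 228647000, relative input reads were 4.87, 5.404 and 5.18 in WT, 2.28, 1.82 and 1.81 in MUTYH-/, 3.26, 2.65 and 2.04 in OGG1-/ and 2.53, 1.87 and 2.41 in DKO. All 9 knockout columns were below all 3 WT columns. This pattern was noticed in the data and was not tested.

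At 2 short stretches of very high input, 144101001 to 144107000 on chromosome 1 and 33336001 to 33341000 on chromosome 16, input reads were 10.9 to 13.3 and 15.9 to 20.2 in WT and 1.21 to 2.39 and 1.94 to 5.14 in the MUTYH columns. Input reads were also below WT in the other knockouts, at 2.14 to 5.13 and 3.48 to 9.97 in OGG1-/ and at 1.84 to 3.62 and 2.53 to 6.78 in DKO. The relative OG reads were 9.87 to 10.9 and 11.2 to 18.4 in WT and 1.51 to 3.91 and 2.54 to 8.68 in the MUTYH columns, and the levels overlapped between groups.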
